A study of Dugesia japonica with 18 samples.

Results

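The transcriptome of whole planarians 3 days after X-irradiation was compared with that of unirradiated animals. The comparison rests on 6 of the 18 libraries of the series, the 3 sampled at day 3 and the 3 sampled at day 0. All gene models that passed a filter on low counts were members, which were 17129 of the 25566 gene models in the count table. The animals were *Dugesia japonica* of the clonal strain SSP (sexualizing super planarian), about 5 mm long and starved before the experiment. The series sampled whole bodies at days 0, 0.5, 1, 3, 5 and 7, with 3 libraries described as biological replicates at each time. The design text of the series states that day 0 was without irradiation, and it does not list day 0.5. The treatment protocol in the labels gives 150 Roentgens of X-rays for every sample, with no exception for day 0. No group is labelled as unirradiated animals kept to day 3, so irradiation and elapsed time, including further starvation, cannot be told apart. The strain is a clone, and how many animals were pooled for a library is not stated in the labels.

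Planarians are flatworms that rebuild lost tissue from neoblasts, dividing stem cells spread through the body. Neoblasts are the main dividing cells of the adult, and X-rays deplete them because dividing cells are sensitive to DNA damage. Cells that had already left the cycle go on differentiating for a time after irradiation, and transcripts of stem cells and of their early descendants are known in planarians to be lost in that order. In RNA from whole animals, fewer cells of a type and less RNA per cell cannot be told apart. The deposited IDs are not paired with gene names, so whole-body identity and neoblast content could not be checked against marker genes, and results are given for gene models as the count table numbers them. The p-values measure the spread between libraries, and the labels do not say whether these came from separate cultures.

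The libraries hold the 3' ends of mRNA (Lasy-Seq, a method by which every RNA sample is indexed at reverse transcription and all are then pooled). The labels describe the same preparation for all 18 libraries. Totals ranged from 7760430 to 12605652 counts at day 0, with a mean of 10687272 ± 2575226 (SD, n = 3). At day 3 they ranged from 8185189 to 9623030, with a mean of 8787153 ± 746916 (SD, n = 3). The day 3 mean was lower by 1900119 counts, which did not exceed the spread (exact two-sided permutation test, p = 0.4, where 3 against 3 libraries cannot go below 0.1). Counts were scaled with the trimmed mean of M values (TMM) and are given as CPM (counts relative to a common library size), so a level is a share of the sequenced RNA and not an amount per animal. The filter removed 8437 gene models. Of these, 1265 had no count in the 6 libraries, and together they held 0.157% of the 6 libraries' counts.

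At day 3, 5452 of the 17129 gene models differed from day 0 at an adjusted p below 0.05 (31.8%; edgeR quasi-likelihood F-test with Benjamini-Hochberg adjustment). Of these, 3175 were lower (18.5% of those tested) and 2277 were higher (13.3%), so 58.2% of the calls were falls. Falls were deeper than rises were high: 1278 gene models fell at least 2-fold (7.46%) and 71 rose at least 2-fold (0.415%). The deepest called fall was -7.27 on the log2 scale and the highest called rise was 2.61. Across all gene models tested, the median log2 change was 0.01, and the middle 50% lay between -0.40 and 0.29. The lower tail was longer than the upper, with the lowest 5% of gene models under -1.25 and the highest 5% above 0.61.

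**Figure D1:**
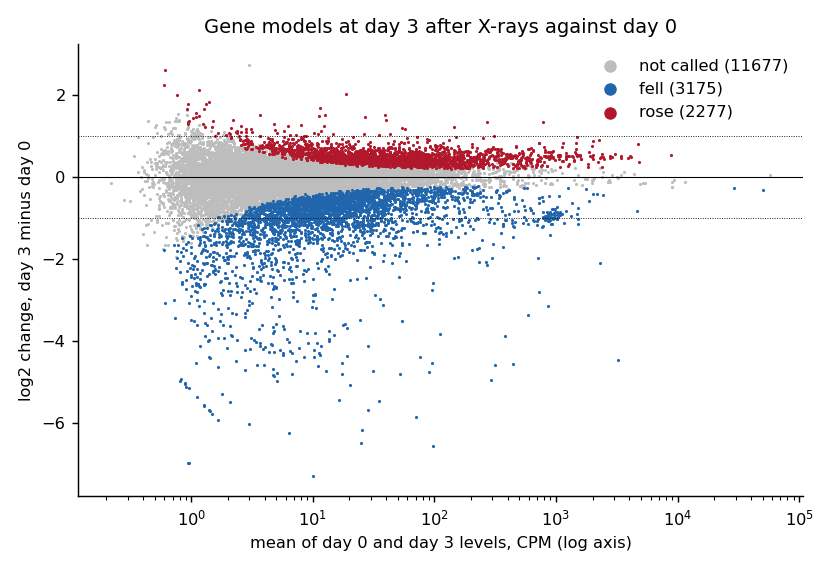
Each point is 1 of the 17129 gene models, with its mean level over days 0 and 3 on a log axis (CPM) and its log2 change at day 3 against day 0 on the vertical axis; dotted lines mark 2-fold changes. The 3175 falls in blue reach down to -7.27, the 2277 rises in red lie mostly under the 2-fold line, and the 11677 gene models in grey were not called.

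The separation of the 2 days was visible between single libraries. Across gene models, the median absolute log2 difference between a pair of day 0 libraries was 0.185 to 0.192, and between a pair of day 3 libraries it was 0.199 to 0.211. All 9 pairs of a day 0 and a day 3 library were further apart, at 0.343 to 0.367. In 4094 gene models (23.9%) all 3 day 3 libraries lay below all 3 day 0 libraries, and in 3482 (20.3%) they lay above. Of the 5452 calls, 5257 had no overlap between the groups, 3087 of the falls and 2170 of the rises. The calls were made from the same 6 libraries, so this follows in large part from the calls. A further 2319 gene models had no overlap but were not called.

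The 3175 falls had a median log2 change of -0.88, with quartiles of -1.27 and -0.61. The median level was 16.3 CPM on day 0 and 8.43 CPM on day 3. Together they held 33.2 ± 0.604% of all counts at day 0 and 20.6 ± 0.0775% of them at day 3 (SD, n = 3 each). Most were moderate: 706 (22.2%) fell by less than 1.5-fold, 1191 (37.5%) by 1.5- to 2-fold and 940 (29.6%) by 2- to 4-fold. A further 252 fell by 4- to 16-fold, and 86 fell by 16-fold or more. That the 3175 held a lower share of the counts at day 3 follows from how they were chosen.

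The 338 gene models that fell by 4-fold or more were the deep end of the response. They held 2.24%, 2.12% and 2.29% of the counts in the 3 day 0 libraries and 0.262%, 0.266% and 0.237% in the 3 day 3 libraries. The groups did not overlap, which follows from how the set was chosen. Their median level was 6.38 CPM at day 0, with a range of 1.11 to 6226 CPM, and 0.682 CPM at day 3, with a maximum of 871 CPM. At day 3, 199 of the 338 averaged under 1 CPM. The 86 that fell by 16-fold or more had a median level of 9.80 CPM at day 0 and 0.439 CPM at day 3, and 62 of them were under 1 CPM at day 3. At such levels a library of this depth gives few reads, so the depth of these falls is less certain than their direction.

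The 2277 rises were numerous and small, with a median log2 change of 0.47 and quartiles of 0.38 and 0.59. Their median level went from 35.1 to 48.1 CPM. They held 27.4 ± 0.303% of all counts at day 0 and 39.1 ± 0.416% of them at day 3 (SD, n = 3 each). Of these, 1691 (74.3%) rose by less than 1.5-fold, 515 (22.6%) by 1.5- to 2-fold, 66 by 2- to 4-fold and 5 by 4- to 16-fold. None of the rises reached 16-fold. The 2206 rises under 2-fold held 27.1%, 27.6% and 27.1% of the counts at day 0 and 38.9%, 39.1% and 38.3% at day 3. The 71 rises of 2-fold or more held 0.113 to 0.123% of the counts at day 0 and 0.272 to 0.301% at day 3, a large part of it in DjGI001875-001 with a mean of 1114 CPM at day 3. Their median level went from 1.79 to 3.90 CPM, and 13 of them exceeded 20 CPM at day 3. That these sets of rises held a higher share at day 3 follows from how they were chosen. Because shares of a library sum to a fixed total, a loss of counts in one set raises the share of the rest, and small rises in share cannot be told apart from such a shift.

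Falls and rises were called at all levels of expression, and the share of gene models called in each direction was higher at higher levels, more so for rises. Among the 5066 gene models averaging 1 to 5 CPM, 670 fell (13.2%) and 111 rose (2.19%), so that 85.8% of the calls were falls. Among the 6323 at 5 to 20 CPM, 1335 fell (21.1%) and 550 rose (8.70%). From 20 to 100 CPM the order turned, with 820 falls (22.0%) and 1028 rises (27.6%) among 3726. Among the 952 at 100 to 500 CPM, 211 fell (22.2%) and 432 rose (45.4%), and among the 327 above 500 CPM, 100 fell (30.6%) and 148 rose (45.3%). The class under 1 CPM held 735 gene models, of which 39 fell and 8 rose.

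The size of change that could be called also depended on level. The median standard error of a log2 change was 0.578 under 1 CPM, 0.343 at 1 to 5 CPM, 0.183 at 5 to 20 CPM and 0.0937 at 100 to 500 CPM. A rise of the median size, 0.47, was thus below the usual standard error under 1 CPM and little above it at 1 to 5 CPM. Counted at 2-fold or more, falls outnumbered rises in every class: 512 against 34 at 1 to 5 CPM, 437 against 17 at 5 to 20 CPM, 191 against 8 at 20 to 100 CPM, 65 against 3 at 100 to 500 CPM and 34 against 1 above 500 CPM. The median log2 change over all gene models of a class, called or not, was -0.09 at 1 to 5 CPM, 0.11 at 20 to 100 CPM, 0.21 at 100 to 500 CPM and 0.19 above 500 CPM.

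**Figure D2:**
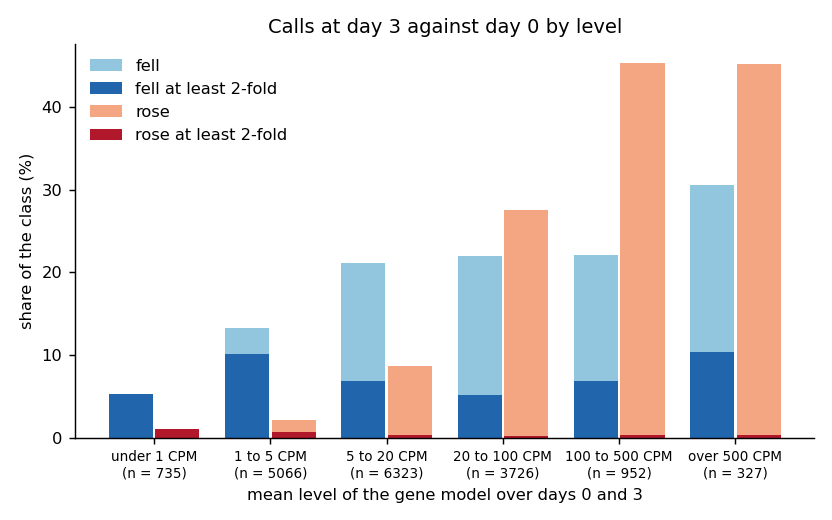
Bars give the share (%) of the gene models of each level class (mean CPM over days 0 and 3, n under each class) that fell, in blue, or rose, in red, with changes of at least 2-fold in the darker shade. Falls lead below 20 CPM, rises lead above it (45.4% against 22.2% at 100 to 500 CPM), and 2-fold changes are mostly falls in every class.

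Of the 100 most abundant gene models, each averaging at least 1219 CPM, 17 fell and 50 rose. Their median log2 change was 0.24, with a range from -4.44 to 0.98. Of the 17 falls, 4 were at least 2-fold, while none of the rises was. The 100 took 38.8%, 38.6% and 40.2% of the counts at day 0 and 39.9%, 39.5% and 40.7% at day 3. The difference of 0.855 percentage points was within the spread between libraries (exact two-sided permutation test, p = 0.3). Of the 10 most abundant, 2 fell and 1 rose, and their share was 20.2 ± 0.631% at day 0 and 19.0 ± 1.11% by day 3 (SD, n = 3 each; exact two-sided permutation test, p = 0.3).

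A dense group of abundant gene models stood out in the plot of change against level and was chosen after its values were seen. Between 500 and 2000 CPM, 70 of 273 gene models (25.6%) had a log2 change between -1.25 and -0.75. At 100 to 500 CPM, 5.36% of gene models had a change in that range. All 70 were called, with changes from -1.20 to -0.76 and a median level of 886 CPM, and 62 of them carry a first number that no other ID shares. Both the calls and the range of changes follow in large part from how the group was chosen. The 70 held 8.66%, 7.77% and 8.24% of the counts in the day 0 libraries and 4.63%, 4.44% and 3.91% in the day 3 libraries. The day 3 values lay below the day 0 values, which follows from how the group was chosen. Their mean share was 6.30% and 5.60% at days 0.5 and 1, and 3.92% and 3.59% at days 5 and 7. Their changes had quartiles of -1.03 and -0.88 at day 3 and of -1.35 and -1.19 at day 7. The lowest log2 change among the 70 at day 7 was -4.81.

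DjGI017525-001 had the largest fall among gene models that averaged at least 20 CPM in the higher group, were separated between the days and share their first number with no other ID. Its level was 161.7, 180.3 and 233.1 CPM in the day 0 libraries and 1.44, 3.09 and 1.64 CPM in the day 3 libraries. All 3 day 3 libraries were far below every day 0 library, and the raw counts fell from 1832, 2325 and 1692 to 12, 25 and 16. The log2 change was -6.55 ± 0.31 (SE; edgeR adjusted p = 1.18e-15), leaving 1.07% of the day 0 level. On the log2 scale, most of the loss followed day 1. Counted in CPM, much of it came earlier, as the mean had dropped from 191.7 to 93.9 ± 32.0 by day 1. The first time sampled, day 0.5, had 152 ± 50.1 CPM (each SD from 3 libraries). The step from day 1 to day 3 reuses the day 3 libraries by which DjGI017525-001 was chosen. Its p-value takes no account of that choice. In this step the gene model fell by 5.52 ± 0.31 on the log2 scale (edgeR adjusted p = 2.98e-13). It was at 1.99 ± 0.872 CPM at day 5 and 2.29 ± 0.799 CPM at day 7, with no call against day 3 at either time (edgeR adjusted p = 1.00 and 0.913).

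DjGI016853-001 was the most abundant gene model with a fall of at least 2-fold under the same conditions, and it ranked 46th by level among all called. Its level was 3623, 3387 and 4058 CPM at day 0 and 914.9, 942.6 and 756.4 CPM at day 3. The rule required that the days not overlap, and the lowest day 0 library was well above the highest day 3 library. The log2 change was -2.08 ± 0.11 (SE; edgeR adjusted p = 8.32e-15), leaving 23.6% of the day 0 level. In contrast to DjGI017525-001, much of its fall was present at the first time sampled, with 1827 ± 146 CPM at day 0.5 and 1192 ± 62.5 CPM at day 1. From day 1 to day 3 it changed by -0.45 ± 0.10 (edgeR adjusted p = 0.0106), a call that was lost without day 1 replicate 1 (adjusted p = 0.0724), without day 3 replicate 3 (adjusted p = 0.105) or with scaling by the ERCC control RNAs (adjusted p = 0.239). It was at 692 ± 43.7 CPM at day 5, with no call against day 3 (log2 change -0.33, edgeR adjusted p = 0.1505). At day 7 it was at 601 ± 90.9 CPM, with a call against day 3 (log2 change -0.54 ± 0.10, edgeR adjusted p = 0.000816). All of these steps reuse the day 3 libraries by which the gene model was chosen. Their p-values take no account of that choice.

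DjGI009962-001 had the largest rise by the same rule. Its level was 8.21, 5.04 and 9.23 CPM at day 0 and 32.0, 26.8 and 30.8 CPM at day 3. Every day 3 library was above every day 0 library, as the rule required. The raw counts were 93, 65 and 67 at day 0 and 267, 217 and 300 at day 3. The log2 change was 2.03 ± 0.19 (SE; edgeR adjusted p = 3.05e-09). Day 3, with 29.9 ± 2.70 CPM, had the highest mean of the 6 times. The difference between days 3 and 5 was not called (log2 change -0.42, edgeR adjusted p = 0.433). Days 0.5 and 1 had 11.9 ± 2.33 and 18.8 ± 3.65 CPM, and days 5 and 7 had 22.5 ± 5.13 and 19.1 ± 2.87 CPM (SD, n = 3 each). The step from day 1 to day 3 was 0.67 ± 0.18 (edgeR adjusted p = 0.0307) and that from day 3 to day 7 was -0.66 ± 0.19 (edgeR adjusted p = 0.0202). Both steps reuse the day 3 libraries by which this gene model was chosen, which favours a peak at day 3. The p-values take no account of that choice. Both steps also depended on single libraries. The first lost its call with thinned libraries (adjusted p = 0.0579) and without day 1 replicate 1 or 2 or day 3 replicate 1 or 3 (adjusted p = 0.162, 0.147, 0.115 and 0.11). The second lost it without day 3 replicate 1 or 3 or day 7 replicate 3 (adjusted p = 0.0801, 0.0563 and 0.136).

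DjGI001875-001 was the most abundant gene model with a rise of at least 2-fold, and it ranked 212th by level among all called. Its level was 441.5, 399.7 and 472.1 CPM at day 0 and 1129, 999.5 and 1215 CPM at day 3. The 3 day 3 libraries all lay above the 3 day 0 libraries, as the rule required. The log2 change was 1.35 ± 0.18 (SE; edgeR adjusted p = 1.49e-06). Days 0.5 and 1 had 729 ± 175 and 878 ± 117 CPM, day 3 had 1114 ± 109 CPM, and days 5 and 7 had 885 ± 190 and 756 ± 258 CPM (SD, n = 3 each). Neither the step from day 1 to day 3 nor that from day 3 to day 5 was called (edgeR adjusted p = 0.378 and 0.619). With only the libraries compared, the first of these was called (edgeR adjusted p = 0.0253). The day 7 libraries were at 891, 918.8 and 459.4 CPM, so that replicate 3 was near the day 0 level and the other two were not. The change from day 3 to day 7 was -0.56 ± 0.18 (edgeR adjusted p = 0.046). It reuses the day 3 libraries by which the gene model was chosen, and the p-value takes no account of that choice. That call was lost without day 7 replicate 3 (log2 change -0.30, adjusted p = 0.275), without any one of the day 3 libraries (adjusted p = 0.113, 0.0512 and 0.137), with RLE or upper-quartile scaling (adjusted p = 0.051 and 0.0585), with DESeq2 (adjusted p = 0.144), with the stricter filter (adjusted p = 0.0539) and with only the libraries compared (adjusted p = 0.0523).

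**Figure D3:**
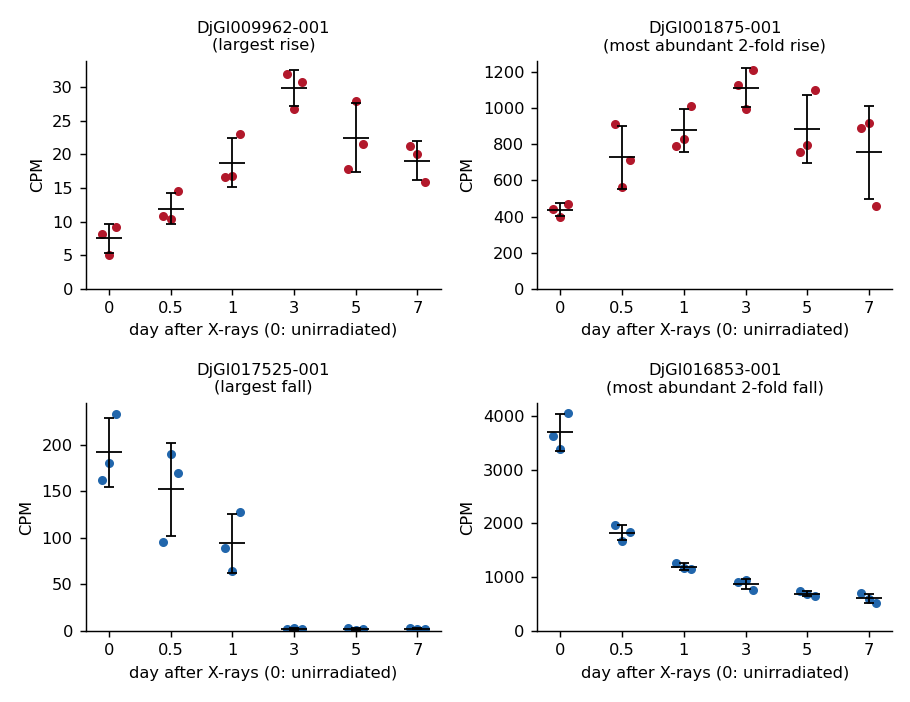
Points are the levels (CPM) of the 4 named gene models in each of the 18 libraries by sampling day, with the mean and SD of each day as bars (n = 3). At day 3 DjGI009962-001 and DjGI001875-001 have their highest means, 29.9 and 1114 CPM, DjGI017525-001 drops from 93.9 CPM at day 1 to 2.06 CPM, and DjGI016853-001 has already fallen at day 0.5.

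A more abundant fall was left out of the naming rule, since 4 other IDs carry the same first number, and counting may have split the reads of similar copies among them. It was chosen after its values were seen. Its level was 6412, 5198 and 7067 CPM at day 0 and 330.4, 296.4 and 231.5 CPM at day 3. The groups were far apart, and the log2 change was -4.44 ± 0.13 (SE; edgeR adjusted p = 3.70e-20). It was at 6573 ± 561 CPM at day 0.5 and 6069 ± 600 CPM at day 1, so its mean was near that of day 0 at both times, and it was at 133 ± 5.30 CPM at day 5. All 5 IDs with this first number were tested and fell. Summed over the 5 IDs, the level was 16340, 13860 and 17970 CPM at day 0 and 4936, 5308 and 4643 CPM at day 3, a smaller log2 change of -1.69.

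A loss to no detected count was rare. In 3 gene models, each day 0 library held at least 10 counts, from 10 to 21, while all 3 day 3 libraries held none, and 2 of the 3 were among those tested. With a floor of 3 counts over the day 3 group, they were at least 11.8-fold to 15.4-fold lower. No gene model showed the reverse. After thinning each library to 7760430 counts, a count of 1 or more was found for 21350, 21514 and 21288 gene models in the day 0 libraries, and for 21172, 21150 and 21338 in the day 3 libraries. The mean fell by 164 to day 3, and the groups overlapped (exact two-sided permutation test, p = 0.2). With at least 5 counts the mean fell by 288 to day 3 and the groups did not overlap, which gave the smallest p that 3 against 3 libraries allow (exact two-sided permutation test, p = 0.1).

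The IDs of the gene models have the form DjGI, number, hyphen, number, and 6104 of those tested share their first number with another ID. The labels and files do not say what the first number stands for. Among the 11025 with a first number of their own, 2232 fell (20.2%) and 1603 rose (14.5%). Among the 6104 that share it, 943 fell (15.4%) and 674 rose (11.04%). Of the 1992 first numbers with 2 or more IDs tested, 457 had 2 or more called IDs: in 260 all of these fell, in 187 all rose, and in 10 they went both ways. IDs with the same first number may share reads and are not independent of each other.

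The day 3 changes were then followed over the other sampling times. All changes below were measured against the same 3 day 0 libraries, which also served to choose the sets, so values at different days are given side by side and not compared. The 338 gene models that had fallen by 4-fold or more had median log2 changes of -1.37, -2.20, -2.86, -2.99 and -3.28 at days 0.5, 1, 3, 5 and 7. The 940 that had fallen by 2- to 4-fold had medians, for the same days, of -0.63, -0.88, -1.26, -1.30 and -1.35, and the 1897 with smaller falls -0.31, -0.45, -0.66, -0.68 and -0.77. The 2206 rises under 2-fold had medians of 0.21, 0.29, 0.46, 0.47 and 0.47, and the 71 larger rises 0.60, 0.94, 1.23, 1.18 and 1.36. Over all gene models tested the median stayed between -0.01 and 0.02, which follows in large part from TMM scaling. At day 3 it was 0.07 with upper-quartile scaling and 0.10 with ERCC scaling.

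The 338 deepest falls had kept different shares of their day 0 means at the earlier times. Many of these means rest on few counts, and a difference in timing between gene models was not tested. At day 0.5, 76 of the 338 were already under 25% of their day 0 mean, 164 were at 25 to 50%, 88 at 50 to 100%, and 10 at or above it. At day 1, 187 were under 25%, 112 at 25 to 50%, 37 at 50 to 100% and 2 at or above the day 0 mean. The median gene model was at 38.2% of day 0 at day 0.5 and at 21.4% at day 1. Among the 5 times after day 0, 658 of the 3175 falls (20.7%) had their lowest mean at day 3, 752 (23.7%) at day 5 and 1568 (49.4%) at day 7. Over all gene models tested, the lowest of these 5 means was at day 3 in 13.8% and at day 7 in 28.8%. Of the 2277 rises, 694 (30.5%) had their highest mean at day 3 and 932 (40.9%) at day 7, against 13.3% and 29.8% of all gene models tested. The day 3 libraries also served to choose the falls and the rises, so an excess at day 3 follows in part from that choice.

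**Figure D4:**
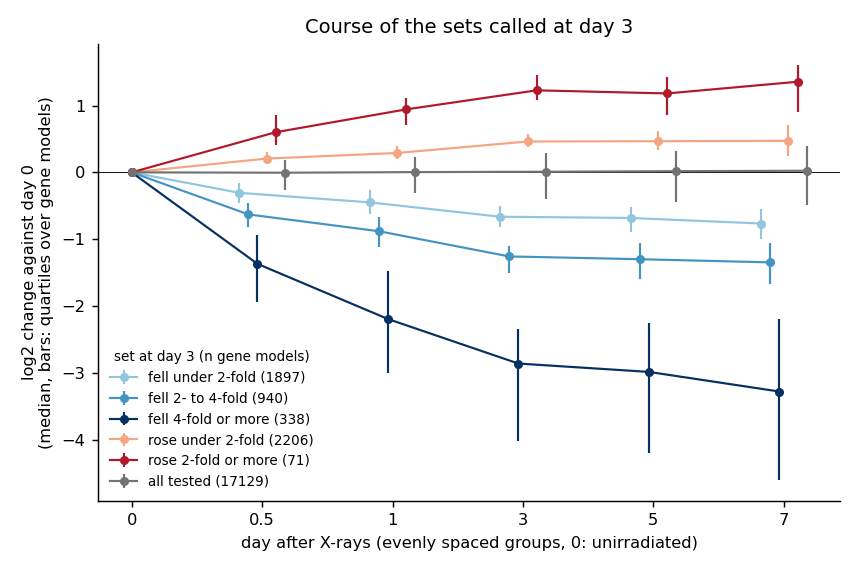
Lines give the median log2 change against day 0 of sets chosen by their change at day 3, with quartiles over gene models as bars, at each sampling day (drawn with even spacing). The 338 deepest falls go from -1.37 at day 0.5 to -2.86 at day 3 and -3.28 at day 7. The set of all 17129 gene models stays near 0, which follows in large part from TMM scaling.

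Day 3 was also compared directly with other times. These contrasts set no day 0 library against another, but the filter, the scaling and the estimate of spread came from the fit to all 18 libraries. From day 1 to day 3, 517 gene models changed (3.02%), with 424 falls and 93 rises, of which 91 and 5 were at least 2-fold. Leaving out day 1 replicate 1 or 3, or day 3 replicate 2 or 3, left 251 to 337 calls, and the 93 rises became 22 to 37 without any one of the 6 libraries. With only the libraries of these days in the fit, 824 were called (595 fell, 229 rose). From day 3 to day 5, 206 changed (1.2%), with 189 falls and 17 rises. The 17 became 3 to 8 without any one of the day 3 libraries or without replicate 2 or 3 of day 5, and 35 with library totals as the scaling. From day 3 to day 7, 1743 changed (10.2%), with 1069 falls and 674 rises. Without day 3 replicate 1 the last count was 1126, with 398 rises, and without day 7 replicate 3 it was 1138, with 688 falls. Which direction led in this last step depended on the scaling: 874 fell and 918 rose with library totals, and 762 fell and 226 rose with the ERCC counts. With only the libraries of these days in the fit, 696 fell and 564 rose. The difference between the counts of the steps was not tested.

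Steps between other pairs of days set apart libraries that are neither of day 3 nor of day 0, although 1 fit with shared spread gave all the calls. From day 0.5 to day 1, 145 of all gene models fell (0.847%). Of the 3175 gene models lower at day 3, 136 (4.28%) were among them, which is 93.8% of the 145. Without day 0.5 replicate 3 the 136 became 80, and without day 1 replicate 3 they became 81. Of the 40 gene models that rose in this step, 26 were higher at day 3 (65% of the 40, and 1.14% of the 2277) and 4 were lower. The median log2 step of the 3175 was -0.18 and that of the 2277 was 0.09, against -0.003 for all tested. From day 5 to day 7, 277 of all gene models fell (1.62%). Of these, 63 had been lower at day 3 (22.7% of the 277, and 1.98% of the 3175) and 79 had been higher (28.5% of the 277, and 3.47% of the 2277). The 63 became 39 and 37 without replicate 2 or 3 of day 5, and 32 without replicate 3 of day 7. Without that last library the 79 became 49. With fits to only the libraries compared, the 63 became 26 and the 79 became 46. In the same step 168 of all gene models rose. Of these, 44 had been higher at day 3 (26.2% of the 168, and 1.93% of the 2277) and 6 had been lower (3.57% of the 168). The median step was -0.08 for the falls and -0.006 for the rises, against -0.003 for all tested. The counts of gene models that rose in these 2 steps were not tried under alternatives.

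Replicates varied more at day 3 than at day 0 among the falls. The median SD between replicates, on the scale of log2(CPM + 0.5), was 0.142 at day 0 and 0.180 at day 3 for the 3175 falls, and it was larger at day 3 in 62.7% of them. For the 2277 rises it was 0.112 at day 0 and 0.107 at day 3, with 48.4% larger at day 3. Over all tested it was 0.164 and 0.179, with 54.3% larger at day 3. Lower counts give a larger spread on this scale, and the part of depth in the difference was not tested.

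Of the gene models called with the 18 libraries and TMM, none was called in the opposite direction under any alternative that kept the IDs as deposited. This check covers only gene models called both times. The alternatives reuse largely the same counts, so a reversal was unlikely from the start, and the check cannot show that direction was independent of processing. Some calls were lost, and the sign of their changes was not counted. Scaling by the ERCC control RNAs kept 2278 of the 3175 falls and 1992 of the 2277 rises. The split of the calls did move, with 2879 falls and 2876 rises under upper-quartile scaling. Under ERCC scaling there were 2278 falls and 2057 rises, and these control RNAs had only 190 to 487 counts per library. Without any one of the 6 libraries, 2705 to 3011 fell and 1703 to 1869 rose. A test against a 2-fold limit, in place of a limit on the estimate, left 421 falls and 3 rises.

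**Figure D5:**
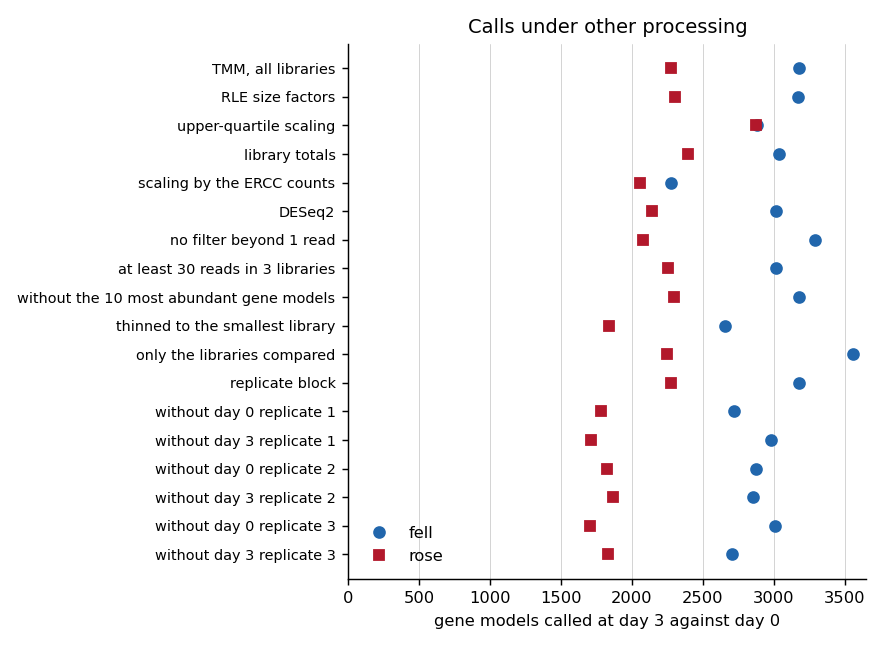
Points give the number of gene models that fell (blue circles) and rose (red squares) at day 3 against day 0 under each of 18 ways of processing, with the reported one in the top line. Falls lie between 2278 and 3560 and rises between 1703 and 2876, and the numbers nearly meet with upper-quartile scaling.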

How the data were processed

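The count table deposited by the authors gives unnormalized estimated counts for every gene model in 18 libraries. Salmon, BWA 0.7.17-r1188 and fastp 0.21.0 are listed, with no roles, in the submitters' processing notes. Their roles, the reference and the origin of the gene models were not given in the sources used here. A table of samples, also deposited, holds the total count, the number of rows above 0 and the day of each library, per the file headers, and all of these matched the count table and the labels.

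Of 25658 rows, 92 ERCC rows (0.004% of counts) were left out. The 38 values that were not whole were rounded. Groups came from the sample titles. The low-count filter of edgeR by group (minimum count 10, minimum total 15) was followed by TMM scaling and, in edgeR 4.0.16 (R 4.3.3), a quasi-likelihood F-test with 1 mean per group fitted to all 18 libraries. P-values were two-sided and adjusted over all gene models by Benjamini-Hochberg, with 0.05 as the threshold. The SE of a log2 change was approximated from the change and its F value, and it may be understated where few counts were left. The biological coefficient of variation was 0.107. Depth, detected gene models and shares were compared by exact permutation tests, for which 3 against 3 libraries cannot go below p = 0.1.

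Without gene names, marker lists could not be matched. The rule for named gene models then allowed 4 IDs whose first number is their own, past the threshold and with no overlap between the 6 libraries: the largest rise and fall at 20 CPM or more in the higher group, and the most abundant rise and fall of at least 2-fold. The comparison, the lists and the tests were chosen with earlier results of these data known. Alternatives were DESeq2 1.42.0, RLE, upper-quartile, library-total and ERCC scaling, no filter beyond 1 read, at least 30 reads in 3 libraries, leaving out the 10 gene models of highest level, thinning, counts summed over a first number, only the libraries compared, the replicate number as a block, a 2-fold limit (glmTreat), and leaving out each library in turn. No pair of replicates had the same counts within sampling noise (chi-square per degree of freedom 3.65 to 5.65). Chosen after seeing the data were the sets followed over time, the dense group of abundant falls and the steps between other days.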

Additional observations from a re-analysis of the deposited data

Results flagged for a closer look

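Levels at day 3 differed from those at neighbouring times in tests of the difference itself (edgeR quasi-likelihood F-test, adjusted p below 0.05): 517 gene models against day 1, 206 in day 5 against day 3, and 1743 in day 7 against day 3. Among the named gene models, DjGI017525-001 had a log2 step of -5.52 between days 1 and 3 (edgeR adjusted p = 2.98e-13) and kept that call under each alternative tried. DjGI016853-001 had steps of -0.45 between days 1 and 3 (edgeR adjusted p = 0.0106) and -0.54 between days 3 and 7 (edgeR adjusted p = 0.000816), and the second call held under each alternative tried. DjGI009962-001 had steps of 0.67 between days 1 and 3 (edgeR adjusted p = 0.0307) and -0.66 between days 3 and 7 (edgeR adjusted p = 0.0202). DjGI001875-001 had a step of -0.56 between days 3 and 7 (edgeR adjusted p = 0.046). The calls of DjGI009962-001 and DjGI001875-001, and the first of DjGI016853-001, were lost without single libraries, as given with their levels. All named gene models were chosen by the same day 3 libraries that these steps reuse. The p-values take no account of that choice.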

How the results depend on the processing

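Of 269 values of the counts of calls under alternatives, 240 were within 1.5 times the reported count. The 4 named gene models kept direction and call at day 3 against day 0 in 68 of 68. These 4 were chosen as the largest or most abundant changes past the threshold, so this does not speak for the calls in general. With a 2-fold limit in the test, 424 gene models were called (421 fell, 3 rose). With ERCC scaling, 140 were called between days 1 and 3, 988 between days 3 and 7 (226 rose), 10 of the 100 most abundant fell, 70 of the day 3 falls fell from day 0.5 to day 1, and 24 of the falls and 46 of the rises fell from day 5 to day 7. With only the libraries compared, 824 were called from day 1 to day 3, 696 fell from day 3 to day 7, and 26 of the day 3 falls and 46 of the rises fell from day 5 to day 7. With at least 30 reads in 3 libraries, 40 rose at least 2-fold. The difference in share was -1.20 percentage points (-1.198) for the 10 most abundant gene models, against 0.855 for 100. The causes were not tested.

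Leaving out 1 library at a time gave 251 to 367 calls from day 1 to day 3, and 1126 to 1745 from day 3 to day 7, with 688 to 1061 falls and 398 to 712 rises. Of the day 3 falls, 80 to 158 fell from day 0.5 to day 1 and 32 to 61 from day 5 to day 7, and of the rises 49 to 88 fell in the latter step.

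Same-numbered replicates also carry adjoining library labels, and what else they share is not stated. The deviations of same-numbered libraries had correlations of 0.0661, 0.005 and -0.0395. With the number as a block, 5447 gene models were called at day 3 against day 0 (3174 fell, 2273 rose), and the call of DjGI001875-001 from day 3 to day 7 was lost (edgeR adjusted p = 0.0563). Depth limits the small rises: the median rise is below the usual standard error under 1 CPM and little above it at 1 to 5 CPM.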
